A study of Mus musculus with 6 samples.

Results

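The genes described here encode PIWI proteins, Tudor-domain proteins, other components of the piRNA pathway, and RNA-binding and related proteins of germ cells. The rule that chose them is a list of names and uses no measured value. The list was, however, chosen with earlier results of these data known. All 32 were among the 24495 gene symbols counted. The cells were cultured spermatogonial stem cells, the self-renewing germ cells of the testis, taken from DBA2 mice at postnatal days 5 to 8. The 3 treated libraries came from cultures given 2 uM EPZ5676 (pinometostat, an inhibitor of the histone H3 lysine methyltransferase DOT1L) for 2 weeks. The 3 control libraries came from cultures given 0.2% ethanol for 2 weeks. The design text calls each set biological triplicates, and nothing states whether replicates were separate cultures or animals, so p-values measure only the spread between these libraries. The comparison asks which of these transcripts differ in level when DOT1L is inhibited.

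piRNAs are small RNAs that guide PIWI proteins to transposon transcripts, which are then cut or silenced at their genomic copies. Precursor RNAs are handed on by a helicase, cut and trimmed at the mitochondrial surface, and loaded onto PIWI proteins in perinuclear granules called nuage, where Tudor proteins bind methylated arginines of the PIWI tails. In the male germline the pathway protects the genome of fetal and postnatal germ cells from transposons such as L1 and IAP. Germ cell RNA-binding proteins such as DAZL and DND1 act beside it by controlling the stability and translation of messenger RNAs.

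Total gene counts lay between 17784332 and 54645903 per library, and the members took 0.795% to 0.842% of them. Summed over the 32 genes the level was 8117 ± 236 CPM (counts scaled to library size, with TMM factors) in the treated group and 8268 ± 155 CPM in the vehicle group (SD, n = 3). Both replicate 2 libraries stood apart on the first principal component, at 21.3 and 33.2 against -15.1 to -11.9 for the other 4 libraries. Germ cell markers were present. Of 20 markers of undifferentiated spermatogonia 1 averaged under 1 CPM, and levels with ethanol ran from 0.19 CPM for T to 486 CPM for Zbtb16. Foxo1 was at 403 CPM with ethanol, whereas Id4, Nanos2 and Neurog3 were at 19.3, 10.4 and 5.98 CPM. Of 12 spermatid markers 7 averaged under 1 CPM, Prm1 and Prm2 among them, whereas 18 of 20 spermatocyte markers averaged at least 1 CPM, Sycp1 at 392 CPM with ethanol. Fibroblast markers were present too: the summed level of 26 was 1656 to 2998 CPM under ethanol and 1680 to 2221 CPM under EPZ5676, highest in replicate 2 of each group. The medians of 25 tested fibroblast markers, 9 tested Sertoli, 6 tested peritubular and smooth muscle, 6 tested macrophage and 7 tested endothelial markers had log2 fold changes of -0.24, 0.03, -0.00414, -0.04 and -0.10, with 22 of the 25 fibroblast markers below 0, and of the 7 Leydig markers 1 had enough counts to test. Among germ cell lists the medians were -0.02 for undifferentiated spermatogonia (19 tested), 0.02 for differentiating spermatogonia (10 tested) and 0.07 for spermatocytes (18 tested). Of these markers 1 was called in the blocked edgeR fit, Rec8, a meiotic cohesin gene, at 0.46 (adjusted p = 0.0467). The receptor genes Gfra1 and Kit, which mark undifferentiated and differentiating spermatogonia, were at -0.42 and -0.37 (adjusted p = 0.0611 and 0.0586 in that edgeR fit). Other markers of the same lists went up: Neurog3 was at 0.72 and Sohlh2 at 0.24 (adjusted p = 0.0637 and 0.0888 in that edgeR fit). The part of germ cell stages in the members' values was not tested. Dot1l itself was at 243 ± 40.4 CPM under treatment, against 202 ± 3.92 CPM (SD, n = 3), which does not check an inhibitor that acts on the enzyme.

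Promoters are shown for 6 members. Mov10l1, Mael, Fkbp6 and Tex19.1 had the smallest p-values, when replicate pairs were fitted as a block, among members with lower levels under EPZ5676, so they were chosen after the values were seen, and Ddx4 and Piwil1 differed little between the groups. Each sequence is the 250 bases upstream of a RefSeq transcript start on GRCm38.p6, written 5′ to 3′ on the gene's strand. Capitals mark 3 motifs searched on both strands: the E-box CACGTG, bound by MAX and its partners MYC and MGA; TTCCCGCC, an E2F site; and TAACGG, a MYB site. The counts themselves rest on mm9, and the genes were matched by symbol.
Mov10l1, chr15:88982744-88982993, plus strand: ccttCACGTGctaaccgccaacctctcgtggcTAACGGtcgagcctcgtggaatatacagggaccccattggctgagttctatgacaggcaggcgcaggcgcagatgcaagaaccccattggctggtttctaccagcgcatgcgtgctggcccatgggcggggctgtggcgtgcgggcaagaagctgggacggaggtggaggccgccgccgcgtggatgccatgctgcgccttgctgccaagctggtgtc
Mael, chr1:166238745-166238994, minus strand: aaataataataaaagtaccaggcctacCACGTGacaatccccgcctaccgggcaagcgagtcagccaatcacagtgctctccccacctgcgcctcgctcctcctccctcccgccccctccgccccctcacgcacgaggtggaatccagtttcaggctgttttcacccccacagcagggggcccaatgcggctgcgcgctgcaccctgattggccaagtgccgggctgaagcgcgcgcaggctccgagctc
Fkbp6, chr5:135350045-135350294, minus strand: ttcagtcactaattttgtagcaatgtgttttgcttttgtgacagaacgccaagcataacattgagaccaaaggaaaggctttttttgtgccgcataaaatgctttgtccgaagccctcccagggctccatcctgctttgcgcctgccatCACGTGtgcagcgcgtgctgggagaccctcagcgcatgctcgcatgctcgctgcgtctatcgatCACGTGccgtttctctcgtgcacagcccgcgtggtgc
Tex19.1, chr11:121145893-121146142, plus strand: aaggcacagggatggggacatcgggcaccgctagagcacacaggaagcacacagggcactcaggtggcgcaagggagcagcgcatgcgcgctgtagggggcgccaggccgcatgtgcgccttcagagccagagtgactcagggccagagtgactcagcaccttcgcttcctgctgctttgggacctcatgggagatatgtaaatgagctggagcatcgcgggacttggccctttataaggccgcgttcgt
Ddx4, chr13:112652311-112652560, minus strand: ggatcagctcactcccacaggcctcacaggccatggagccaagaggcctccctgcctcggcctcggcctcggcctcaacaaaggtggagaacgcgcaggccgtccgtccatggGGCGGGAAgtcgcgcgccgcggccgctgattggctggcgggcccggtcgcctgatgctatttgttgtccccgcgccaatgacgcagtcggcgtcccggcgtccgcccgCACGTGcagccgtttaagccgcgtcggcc
Piwil1, chr5:128735996-128736245, plus strand: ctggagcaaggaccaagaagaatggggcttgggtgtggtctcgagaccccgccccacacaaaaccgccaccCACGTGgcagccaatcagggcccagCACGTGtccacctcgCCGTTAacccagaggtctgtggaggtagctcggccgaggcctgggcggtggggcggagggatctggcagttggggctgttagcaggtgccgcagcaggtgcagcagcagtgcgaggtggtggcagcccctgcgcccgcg

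Mov10l1 held an E-box whose first base lay 246 bases upstream of the start and a MYB motif at 218, and Mael an E-box at 223. Fkbp6 held E-boxes at 101 and 37 bases upstream of this start, and a second RefSeq start of the gene had the same pair in its window. Ddx4 held an E-box at 29 and an E2F motif at 137, and Piwil1 held E-boxes at 179 and 154 and a MYB motif at 139. Tex19.1 held none of the 3 motifs in these letters. RefSeq promoters were at hand for 26 of the 32 members, with 37 starts in all. An E-box stood in at least 1 window of 9 of the 26 genes (34.6%), against 6.86% of 27018 genes with a promoter in the table. A gene with more starts has more windows to hold one. For Boll and Pld6, the only window with an E-box failed a check on its start. The bases after that start were not found near the start of a GENCODE M21 transcript of the gene. This check was made for member windows alone. Counted by window, 11 of 37 held an E-box (29.7%), against 6.02% of 32841. Tdrd1 and Fkbp6 each had overlapping windows that counted the same E-boxes again, and the downstream window of each failed the same check. CpG-rich windows hold more CACGTG: among genes with a window of at least 10 CpG dinucleotides the shares were 34.8% of 23 members and 10.2% of all 10870. At the same CpG minimum the E2F motif was in 3 of 23 member genes (13.0%) and 4.37% of all, and the MYB motif in 2 of 23 (8.70%) and 3.61%, so both rest on few genes. Member windows had a median of 19 CpG dinucleotides, against 6 over all windows. The matches describe letters in these windows, and binding was not measured here.

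Most of the pathway was well represented in the vehicle-treated cells. Levels between genes were compared as CPM per kilobase of exon, with lengths from GENCODE M21. These lengths join all annotated exons of a gene, and the annotation behind the counts is not stated, so the order can depend on them. Dazl, which encodes an RNA-binding protein required for germ cell development, stood highest at 444 ± 7.19 CPM per kb (SD, n = 3), above 99.9% of tested genes that have a length. Fkbp6, a co-chaperone of piRNA loading, Tex19.1, a mammal-specific gene needed for transposon control, and Mael, a nuage protein, followed at 275 ± 3.40, 272 ± 57.04 and 265 ± 35.05 CPM per kb. Those 3 overlapped between neighbours in the order, whereas Dazl was above Fkbp6, and Mael above Ddx4, in all ethanol libraries. Ddx4, the VASA helicase of nuage, was at 220.0 ± 7.18 CPM per kb. Piwil2, the PIWI protein of spermatogonia, and Mov10l1, the helicase that passes precursors to PIWI proteins, were at 163 ± 11.5 and 162 ± 6.82 CPM per kb and overlapped.

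A step separated Mov10l1 from the next gene, Tex14, at 72.7 ± 3.98 CPM per kb. From Tex14 down to Exd1 the levels ran to 6.11 ± 0.514 CPM per kb, and most neighbours in the order overlapped. The median of the 14527 tested genes with a length was 5.31 CPM per kb, and 28 members had a mean above it. Piwil1, the PIWI protein known from meiotic and later cells, was below that median at 3.39 ± 0.435 CPM per kb. Tdrd3, a broadly expressed Tudor gene, was at 2.85 ± 0.164, and Mybl1, the transcription factor that drives pachytene piRNA genes, at 0.956 ± 0.0427 CPM per kb. Tdrd6, a component of the chromatoid body of spermatids, was lowest at 0.227 ± 0.0408 CPM per kb. The 3 PIWI genes were thus ordered Piwil2, Piwil4 and Piwil1, with no overlap between consecutive PIWI genes in the ethanol libraries.

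**Figure D1:**
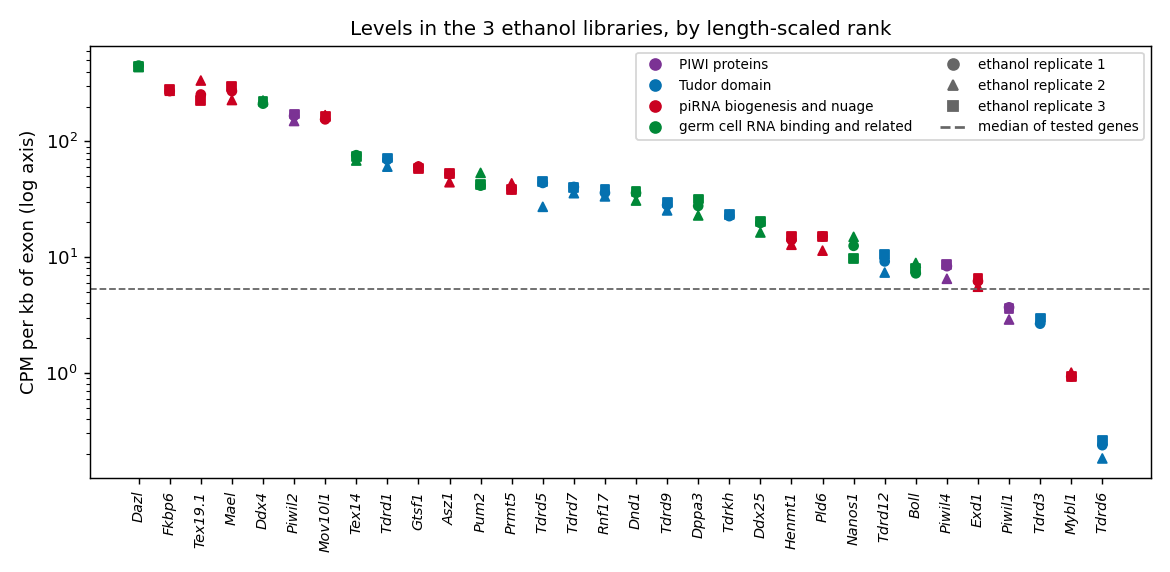
Level of each of the 32 genes in the 3 ethanol libraries, in CPM per kb of exon on a log axis, ordered by mean and coloured by role; the dashed line is the median of tested genes (5.31 CPM per kb). Dazl is highest at 444 CPM per kb, 7 genes lie above 100 and Mybl1 and Tdrd6 lie under 1.

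No member was called between EPZ5676 and ethanol. All 32 passed the filter on low counts, and the edgeR quasi-likelihood test, Benjamini-Hochberg adjusted over 14855 genes, called 0 of the 32, where it also called 0 of all genes (0%). The smallest adjusted p of a member was 0.596. At an unadjusted p under 0.05 there were 3 members, Dppa3, Mov10l1 and Tdrd6, where 7.41% of all genes passed that bound. Dppa3 and Tdrd6 were higher, as were 3.84% of all genes, and Mov10l1 was lower, as were 3.57%. DESeq2 called 0 members and 52 of 14850 genes (0.35%), with 3 members and 6.75% of genes at an unadjusted p under 0.05. Limma-voom called 0 members and 0 genes (0%), with 3 members and 7.55% of genes at that bound. The median log2 fold change of the members was 0.00445, with 17 above 0 and 15 below, beside a median of -0.00663 over all tested genes. In bulk RNA, fewer cells of a type and less RNA per cell cannot be told apart.

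Same-numbered libraries deviated together, so the replicate number was also fitted as a block. That fit called 0 members, where it called 97 of all genes (0.653%), and the smallest adjusted p of the members were 0.0518 for Dppa3 and 0.0583 for Tex19.1. These lay close to the threshold: both genes passed with the block when only library totals were used as scaling (adjusted p = 0.0464 and 0.0421), where 193 of all genes passed (1.3%). The blocked fit without pair 1 called 0 members and 0 genes. Without pair 2 it called 4 of 32 members and 795 genes (5.36%), and without pair 3 it called 3 members and 761 genes (5.1%). With all 3 pairs, 8 members had an unadjusted p under 0.05 in the blocked edgeR fit, where 18.5% of all genes passed. Of these 4 were higher (9.01% of all genes) and 4 lower (9.51%). The members' intervals were narrow. Without the block the 95% interval of the log2 fold change lay within a 1.5-fold change in either direction for 29 of 32 members, against 60.5% of all genes tested. With the block this held for 30 of 32, against 71.3%. The members' median coefficient of variation between replicates was 7.24% with EPZ5676 and 8.70% with ethanol, against 10.9% and 11.6% over all tested genes. In each group 11 of 32 members were above the median of all genes, and 28 of 32 have a level above the median gene's, which was not matched here.

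**Figure D2:**
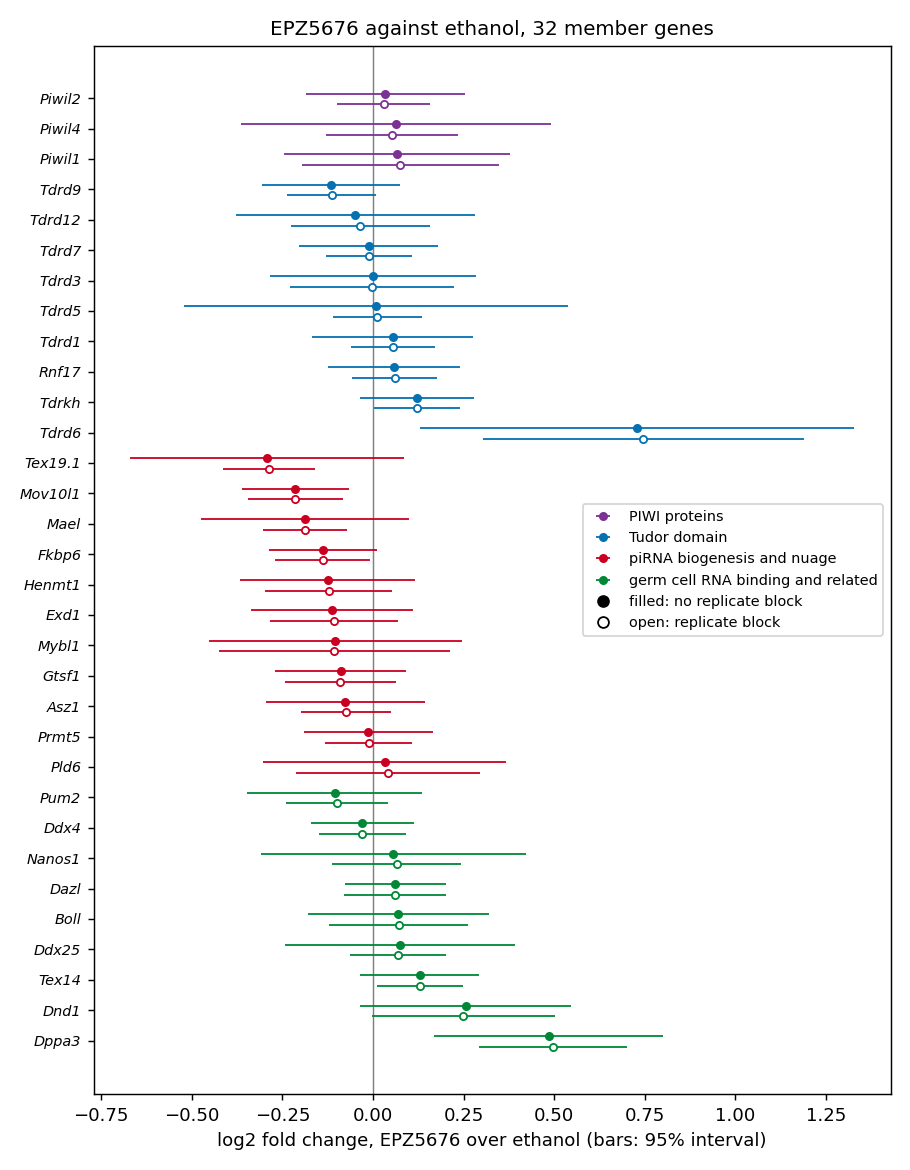
Log2 fold change of EPZ5676 over ethanol for each of the 32 genes, grouped by role, with 95% intervals; filled points are the fit without the replicate block, open points the fit with it. The values lie between -0.29 and 0.73, most intervals are narrower with the block, and no member passed the adjusted test in either fit.

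The PIWI genes had nearly the same level in both groups. Piwil2 was at 918, 768 and 957 CPM in the treated libraries, listed by replicate number, and at 878, 793 and 911 CPM in the vehicle libraries. In both groups replicate 2 was the lowest, and the groups overlapped. Its log2 fold change was 0.03 ± 0.10 (SE), with a 95% interval of -0.19 to 0.25. Piwil4, the nuclear PIWI protein that directs DNA methylation in fetal germ cells, was at 48.9, 32.3 and 51.4 CPM against 45.0, 35 and 46.3 CPM. Replicate 2 was again lowest in both groups, and the interval, -0.36 to 0.49, was wider. Piwil1 was at 15.9, 16.1 and 14.4 CPM against 16.1, 12.6 and 15.7 CPM, and the log2 difference was 0.07 ± 0.14.

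Of the 9 Tudor genes 6 had a log2 fold change above 0 and 3 below, with a median of 0.00886. Tdrd6 had the highest value of all members. It had 54, 115 and 67 counts in the treated libraries, by replicate number, and 33, 23 and 39 in the vehicle libraries, or 2.76, 2.09 and 3.26 CPM against 1.68, 1.29 and 1.85 CPM. Every EPZ5676 library was above every ethanol library, by a narrow margin between EPZ5676 replicate 2 and ethanol replicate 3. The unblocked log2 fold change was 0.73 ± 0.26 (SE), with an adjusted p = 0.625 in the edgeR test, and the blocked one 0.75 ± 0.19 (adjusted p = 0.114). Tdrd6 was the member with the fewest counts.

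Tdrkh, which anchors piRNA trimming at mitochondria, was at 147, 158 and 159 CPM under treatment, against 139, 143 and 145 CPM in the vehicle libraries. The groups did not overlap, and the log2 fold change was 0.12 ± 0.07 (adjusted p = 0.727 in the edgeR test, 0.263 with the block). Tdrkh shares exon sequence on the opposite strand with Oaz3 in GENCODE M21, and the strand setting of the counting is not given, so reads of the pair may be mixed. Henmt1, Piwil4 and Tdrd5 also overlap an annotated gene on the opposite strand. Tdrd5, a nuage protein of piRNA processing, varied most between replicates: it was at 319.6, 192 and 302 CPM under treatment, against 304, 189 and 315 CPM in the vehicle libraries. Its replicate 2 libraries lay far below the rest in both groups, and its log2 fold change of 0.01 had an SE of 0.23 unblocked and 0.05 blocked. Tdrd9, a helicase partner of the nuclear PIWI protein, was at 139 ± 6.28 against 150.5 ± 12.4 CPM (SD, n = 3), and the log2 fold change was -0.12 ± 0.08. Tdrd1, the Tudor partner of PIWIL2, was at 381 ± 37.4 against 367 ± 32.9 CPM and Rnf17, another Tudor gene, at 234 ± 13.3 against 225 ± 15.9 CPM. Tdrd7, a chromatoid body component, Tdrd12, a factor of secondary piRNA biogenesis, and Tdrd3 had 95% intervals of -0.20 to 0.18, -0.38 to 0.28 and -0.28 to 0.28.

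The genes listed here under piRNA biogenesis and nuage lay mostly below their ethanol level. Of 11 genes 10 had a log2 fold change under 0, with a median of -0.11, where 48.3% of all tested genes were above 0. In 8 of the 11 the EPZ5676 library was lower in all 3 replicate pairs, where 22.3% of all genes were. No gene of the group passed in either fit, and with no test over the group this is a description. It also rests on the grouping used here, which was chosen with earlier results of these data known. The PIWI and Tudor lists hold nuage and processing genes too. In those lists 3 of 3 PIWI genes and 6 of 9 Tudor genes were above 0. Over all 32 members 17 were above 0 and 15 below.

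Mov10l1 was at 583, 567 and 607 CPM under treatment, against 649, 705 and 685 CPM in the vehicle libraries. All 3 EPZ5676 libraries were below all ethanol libraries, by 1.16-fold in the means, and counts were at least 11402 in each library. The log2 fold change was -0.21 ± 0.06 (SE) in both fits (adjusted p = 0.596 in the edgeR test, 0.123 with the block). Tex19.1 was at 411, 488 and 346 CPM under treatment, against 476, 628 and 422 CPM in the vehicle libraries. Replicate 2 was the highest in both groups, so the groups overlapped, while each EPZ5676 library was below the ethanol library of its number. The unblocked log2 fold change was -0.29 ± 0.17, with an adjusted p = 0.727 in the edgeR test, and the blocked one -0.29 ± 0.06 (adjusted p = 0.0583). Its neighbouring paralog Tex19.2 was at 85.5 ± 19.0 against 86.3 ± 20.7 CPM (SD, n = 3), and reads could be split between the copies.

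Mael was at 417, 344 and 452 CPM under treatment, against 471, 395 and 514 CPM in the vehicle libraries. Again each EPZ5676 library was below its same-numbered ethanol library, the pairs differing by -0.18, -0.20 and -0.19 on the log2 scale, although the groups overlapped. The unblocked log2 fold change was -0.19 ± 0.12, with an adjusted p = 0.771 in the edgeR test, and the blocked one -0.19 ± 0.05 (adjusted p = 0.124). Fkbp6 was at 435, 462 and 416 CPM against 477, 480.0 and 488 CPM, with no overlap and a log2 fold change of -0.14 ± 0.07 (adjusted p = 0.674 in the edgeR test, 0.247 with the block). Its ethanol libraries were closely grouped and its EPZ5676 libraries more spread.

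The other genes of this group differed less. Henmt1, the methyltransferase that methylates the ends of mature piRNAs, was at 34.3 ± 2.63 against 37.3 ± 2.94 CPM (SD, n = 3), and Exd1, a partner of TDRD12, at 34.1 ± 0.584 against 36.9 ± 3.11 CPM. Gtsf1, a zinc finger cofactor of PIWI cleavage, was at 78.2 ± 4.85 against 83.2 ± 2.13 CPM and Asz1, a nuage protein at mitochondria, at 134 ± 10.6 against 141 ± 13.3 CPM. Mybl1 had 94 to 266 counts per library and levels of 4.80 ± 0.0257 against 5.17 ± 0.231 CPM, which did not overlap, and the log2 fold change was -0.10 ± 0.15. Pld6, the mitochondrial nuclease that cuts piRNA precursors, was the 1 gene of the group above 0, and the log2 fold change was 0.03 ± 0.15. Prmt5, the arginine methyltransferase whose marks Tudor domains read, was at 157 ± 7.07 against 159 ± 11 CPM, with a 95% interval of -0.19 to 0.17.

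Among the 9 genes of germ cell RNA binding and related functions, 7 had a log2 fold change above 0 and 2 below, with a median of 0.07. Dppa3, which encodes a protein that protects DNA methylation in the early embryo and marks primordial germ cells, had the smallest p of all members in both fits. It was at 36.7, 31.0 and 35.4 CPM in the treated libraries, by replicate number, against 24.7, 20.4 and 28.3 CPM in the vehicle libraries. The lowest EPZ5676 library stood above the highest ethanol library, and the ratio of means was 1.40. The unblocked log2 fold change was 0.48 ± 0.14 (SE), with an adjusted p = 0.596 in the edgeR test, and the blocked one 0.50 ± 0.09 (adjusted p = 0.0518). GENCODE M21 lists a transcribed processed pseudogene of Dppa3, so some reads could be shared with it.

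Dnd1, which encodes an RNA-binding protein that keeps germ cells alive, was at 108, 108 and 81.5 CPM under treatment, against 86.4, 74.3 and 88.9 CPM in the vehicle libraries. EPZ5676 replicate 3 lay below 2 ethanol libraries, and the log2 fold change was 0.26 ± 0.13 (adjusted p = 0.692 in the edgeR test, 0.277 with the block). An exon of Dnd1 overlaps Wdr55 on the opposite strand. Tex14, a component of the bridges between germ cells, was at 406, 378 and 412 CPM against 381, 342 and 370.5 CPM. EPZ5676 replicate 2 lay just below ethanol replicate 1, and the log2 fold change of Tex14 was 0.13 ± 0.07 (adjusted p = 0.725 in the edgeR test, 0.239 with the block).

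Dazl and Ddx4, the most abundant genes of this group, had narrow intervals around 0. Dazl was at 1671, 1816 and 1819 CPM under treatment, against 1726, 1674 and 1684 CPM in the vehicle libraries. Its 95% interval was -0.08 to 0.20, and the groups overlapped. Ddx4 was at 626, 654 and 668 CPM against 638, 679 and 671 CPM, with an interval of -0.17 to 0.11. Boll, a paralog of Dazl, averaged 29.6 against 28.2 CPM, with an interval of -0.18 to 0.32. Nanos1, a translational repressor gene, was at 50.6 ± 5.84 against 48.8 ± 10.3 CPM (SD, n = 3), and Pum2, its Pumilio-family partner, at 309 ± 18.1 against 333 ± 48.0 CPM. Ddx25, a helicase gene of the male germline, was at 137 ± 23.6 against 130.2 ± 14.8 CPM.

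**Figure D3:**
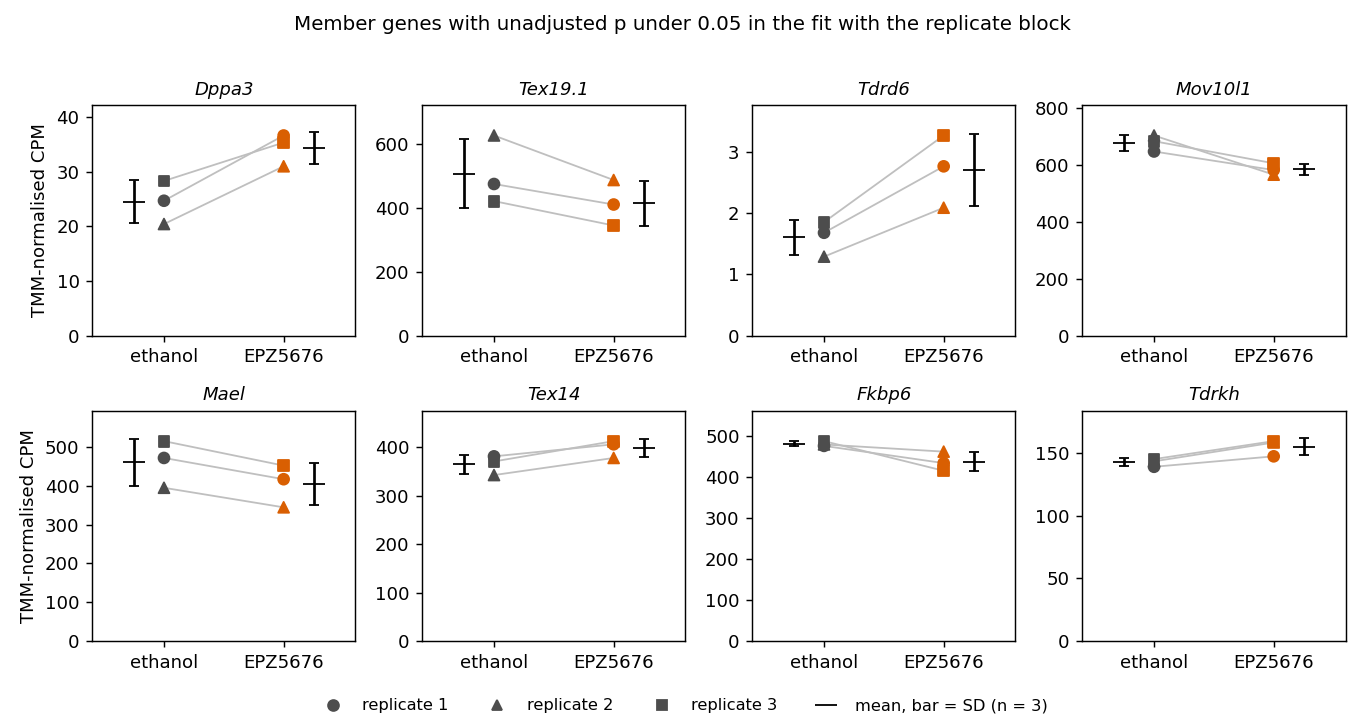
TMM-normalised CPM of the 8 genes with an unadjusted p under 0.05 in the fit with the replicate block; grey lines join libraries of the same replicate number, and black bars give mean and SD over 3 libraries. Each line slopes the same way within a gene, 4 genes upward and 4 downward, which selection by this fit favours.

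Over the members as a whole, 6 had groups that did not overlap, 3 higher (Dppa3, Tdrd6 and Tdrkh) and 3 lower (Mov10l1, Fkbp6 and Mybl1) with EPZ5676. That is 6 of 32 where 14.9% of all tested genes did so, 7.22% higher and 7.64% lower. In 17 of 32 the 3 pairs had the same sign, 6 higher and 11 lower, where 41.8% of all genes did. Both shares were thus a little above those of all genes, and no test was made of the difference.

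Some members differed more between replicate numbers than between the groups. In 17 of 32 members the replicate 2 library was below the mean of the other 2 libraries in both groups, against 35.9% of all tested genes, and in 8 it was above in both. The Tudor genes had the pattern in 7 of 9, with median log2 differences of -0.17 with EPZ5676 and -0.20 with ethanol. Tdrd5 differed by -0.70 and -0.71, and Piwil4 by -0.63 and -0.38. Tex19.1 went the other way, at 0.37 and 0.48, as did Nanos1 at 0.25 and 0.42. Fibroblast markers were higher in replicate 2 in both groups for 19 of 25 tested, with median log2 differences of 0.39 and 0.67. Of 19 tested markers of undifferentiated spermatogonia 10 were lower in both, with medians of -0.12 and -0.23. The part of fibroblasts or of stem cell share in the members' pattern was not tested.

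**Figure D4:**
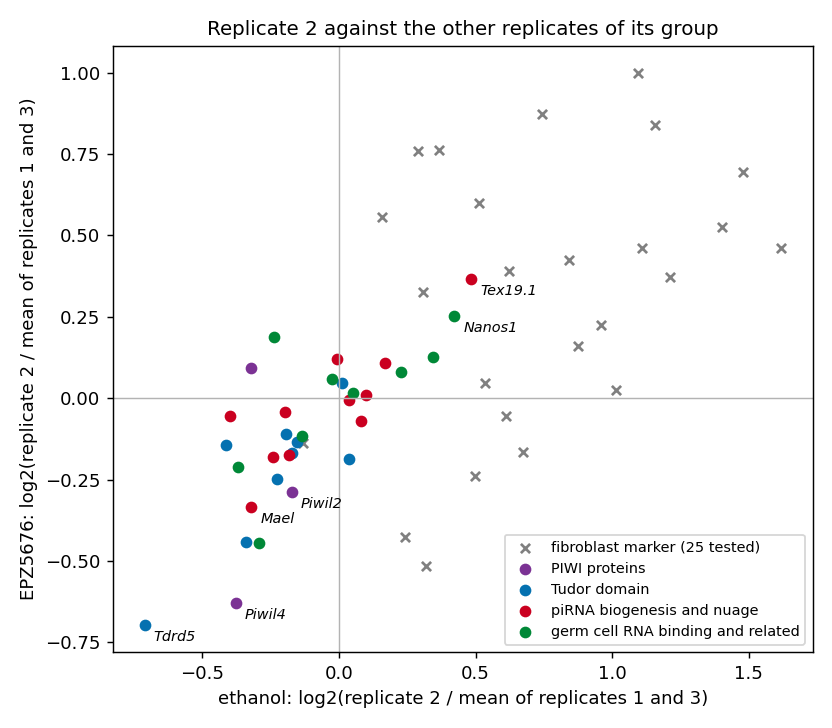
Log2 ratio of replicate 2 to the mean of replicates 1 and 3 in the ethanol group (horizontal) and the EPZ5676 group (vertical), for 32 members by role and 25 fibroblast markers (crosses). Tdrd5 and Piwil4 lie lowest among the members, Tex19.1 and Nanos1 highest, and 24 of 25 fibroblast markers lie to the right of 0.

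The wider pathway was read from a list of other piRNA and germ cell RNA control genes. Of 33 listed genes 29 were in the gene table and 27 had enough counts to test. In the edgeR test 0 were called in either fit, where the blocked fit called 97 of all genes. At an unadjusted p under 0.05 there were 2 of 27 without the block and 6 of 27 with it, near the 7.41% and 18.5% of all genes, and the median log2 fold change was 0.01. Igf2bp1, an RNA-binding protein gene, had the lowest value, at 287 ± 8.26 CPM under treatment, against 341 ± 12.7 CPM (SD, n = 3), with no overlap and a log2 fold change of -0.25 ± 0.06 (SE; adjusted p = 0.591 in the edgeR test, 0.0775 with the block). Kif17, a motor protein gene, and Mov10, the paralog of Mov10l1, followed at -0.23 ± 0.12 and -0.19 ± 0.13. Ago2, an Argonaute gene, Snd1, a Tudor-domain nuclease gene, and Ddx39b, an RNA export helicase gene, were highest at 0.20 ± 0.21, 0.20 ± 0.09 and 0.18 ± 0.07.

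Repeat families that piRNAs target were read from the deposited repeat counts. All repeat counts together were 2.41 to 3.83 times the total gene counts of a library. The handling of multiply aligned reads is not stated, so repeat counts need not measure RNA on the scale of gene counts. Repeat counts were scaled to CPM by the effective gene count total. L1, scaled so, was at 1672720, 2075570 and 2169260 in the treated libraries and at 1715150, 2595710 and 1878730 in the vehicle libraries. These overlapped, and the log2 fold change was -0.06 ± 0.20 (SE). ERVK, the family that includes IAP, had a log2 fold change of -0.10 ± 0.26. Among 48 families tested, 0 were called in either edgeR fit, with 0 at an unadjusted p under 0.05 in each, and limma-voom also called 0. Ethanol replicate 2 was the highest library for both L1 and ERVK. It was also the highest for ERV1, ERVL and B2, so this was not particular to L1 and ERVK.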

How the data were processed

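Libraries were made from TRIzol RNA with a stranded mRNA kit, per the labels' protocols. The authors deposited whole-number counts per gene symbol and per repeat family. The submitters' processing notes name Bowtie, STAR, featureCounts, edgeR and the build mm9. Their versions, the annotation, the strand setting and the handling of multiply aligned reads are not stated. Each could move the counts of overlapping or duplicated genes, and the handling of multiply aligned reads those of repeat families.

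Counts were filtered with filterByExpr (14855 of 24495 symbols kept), scaled by TMM and tested with edgeR 4.0.16 (quasi-likelihood, 2-sided, Benjamini-Hochberg, threshold 0.05) in R 4.3.3. DESeq2 1.42.0 and voom in limma 3.58.1 were alternatives. Log2 ratios of single libraries used CPM plus 0.5. Repeat families needed 10 counts in 3 libraries; 3 of 53 rows name no family (0.171% to 0.24% of repeat counts) and were left out. The edgeR and voom fits were tested on simulated data whose planted changes were larger than any member's fitted change. That says little about power for the members' differences. Same-numbered libraries' deviations from group means correlated at 0.468, 0.639 and 0.373 across genes, over the bound of 0.1, so the numbers were treated as pairs, though no label says what they stand for. Of the differently numbered combinations, EPZ5676 1 with ethanol 3 (0.318) and EPZ5676 3 with ethanol 1 (0.149) were also over the bound, and the other 4 were at -0.338 or below. The block leaves 2 residual degrees of freedom in place of 4.

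The members, lists and naming rule were chosen with earlier results of these data known. All members are named, then, of the other pathway genes, those called and the 3 highest and 3 lowest log2 fold changes with a mean of at least 5 CPM.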

Additional observations from a re-analysis of the deposited data

How the results depend on the processing

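No member was called under 15 of the 18 alternatives. With the replicate block and library totals alone as scaling, 2 members passed the edgeR test, Dppa3 (adjusted p = 0.0464) and Tex19.1 (adjusted p = 0.0421). With the replicate block and one pair left out, members called ran from 0 to 4: none without pair 1, Mael, Tex19.1, Fkbp6 and Dppa3 without pair 2, and Tex19.1, Dnd1 and Dppa3 (3 members) without pair 3. These fits leave 1 residual degree of freedom. The members' median log2 fold change was -0.0183 with limma-voom and ran from -0.0529 to 0.0464 with single libraries left out. The log2 fold change kept its sign in all 18 for 19 members, among them the 8 with the smallest blocked p. The other 13 changed sign in at least 1, with fitted values of 0.106 or less in size. All 18 reuse the same libraries, and the 8 were picked by the blocked fit, which favours a kept sign. Over all genes, edgeR without the block called 0 with each library left out, 97 with the replicate block, 193 with the block and library totals, 10 without both replicate 2 libraries, and 0, 795 and 761 with the block and pair 1, 2 or 3 left out; DESeq2 called 52. The cause of these shifts was not tested. No repeat family was called under any alternative run. The 33 or fewer counts of Tdrd6 in ethanol replicates 1 and 2 limit its precision.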
